A study of Mus musculus with 2 samples.

Results

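Spleen natural killer (NK) cells in which transcripts of Klra8, the gene of the activating receptor Ly49H, were detected were set against spleen NK cells in which none was found. A cell was counted as Klra8-detected when it held 2 or more Klra8 UMIs (unique molecular identifiers, 1 per captured transcript) and as undetected when it held 0, and both classes were limited to cells of 2000 to 8000 UMIs in all. Of 4465 spleen singlets in that window, 2397 were detected and 1541 were undetected, and the 527 cells with 1 UMI belonged to neither class. The whole data set held 13118 cells, of which 7479 were singlets and 5489 of these came from spleen. Of the spleen singlets, 560 lay below the window and 464 above it.

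Ly49H belongs to the Ly49 family of lectin-like receptors, whose genes lie side by side in the NK gene complex of the mouse and are switched on in only some of the NK cells, so that neighbouring cells carry different combinations. Most members recognise major histocompatibility complex (MHC) class I molecules and inhibit the cell. Ly49H instead binds a glycoprotein that mouse cytomegalovirus places on infected cells, and it signals through the adaptors DAP12 (Tyrobp) and DAP10 (Hcst). In C57BL/6 mice the cells that carry it expand during that infection, and no infection is named in the labels.

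All groups came from C57BL/6 mice of 12 weeks, and the cells were sorted as lineage-negative, NK1.1-positive and CD49b-positive. The 4 spleen populations are labelled fasted, refed, ad libitum and naive. Fasted and refed name stages of a cyclic fasting diet, ad libitum is free feeding, and the mice of the diet experiment carried subcutaneous MC38 tumours, a colon adenocarcinoma line. What sets the naive spleen apart is not given in the labels used here. Each population carried 1 hashtag antibody and was 1 sample on a shared lane, and the number of mice behind it is not given. The p-values below therefore set the class difference against counting error and its spread among these 4 populations. The tests estimate that spread for each gene with information from all genes. Spread between mice within a population is not measured.

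The detected class held 608 fasted, 630 refed, 777 ad libitum and 382 naive cells, and the undetected class held 427, 393, 493 and 228 cells of those populations. Depth was close between classes, with a median of 4160 UMIs in detected and 4115 in undetected cells, 1585 and 1578 genes, and 2.75% and 2.72% mitochondrial UMIs. No cell barcode occurred more than once. Summed per population and class, the 8 sums held 1030778 to 3508758 UMIs. NK cell markers were high in both classes, with Ncr1, Klrb1c, Itga2, Eomes and 6 further markers summing to 24432 to 27633 CPM (UMIs of the gene scaled to a common library total) over the detected and 23781 to 28173 CPM over the undetected populations. Cells of clusters that resembled other cell types made up 0.960% of the detected and 2.73% of the undetected class.

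The classes were chosen by the Klra8 UMIs themselves, so the values of that gene are a description. Detected cells held a median of 6 and at most 26 Klra8 UMIs. The summed detected cells had 1532 CPM in the fasted, 1469 CPM in the refed, 1486 CPM in the ad libitum and 1522 CPM in the naive population, a mean of 1502 ± 29.8 CPM (SD, n = 4), against 0 CPM in undetected cells by construction. The cells just outside the threshold, with 1 UMI, had 239 CPM of Klra8, and 301 cells lay just inside it with exactly 2 UMIs.

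The share of cells with 2 or more Klra8 UMIs was 51.4% in the fasted (exact binomial 95% interval 48.5 to 54.3), 54.8% in the refed (51.9 to 57.7), 53.5% in the ad libitum (50.9 to 56.1) and 56.2% in the naive spleen (52.4 to 59.9). These intervals cover counting error only, and with 1 sample per diet state the shares were not tested. The intervals of all 4 populations overlapped. When every cell was thinned to 2000 UMIs the shares were 39.6% in fasted, 40.9% in refed, 39.2% in ad libitum and 41.2% in naive spleen. In the T cell-like cluster of the spleen, 1 of 26 cells (3.85%, exact interval 0.0973 to 19.6, median 6304.5 UMIs) reached 2 UMIs. The share was 54.0% of the 4395 cells outside other-type clusters (median 4098 UMIs). The monocyte or macrophage-like cluster had 22 such cells of 44 (median 4304 UMIs), a share near that of the NK cells, and what raised it was not tested.

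**Figure D1:**
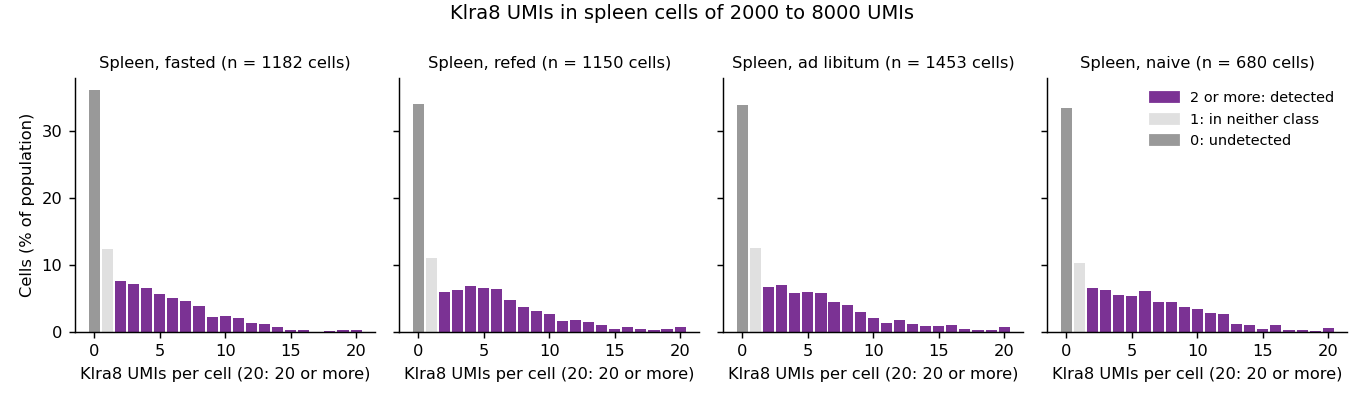
Share of spleen cells (y axis, percent of the cells with 2000 to 8000 UMIs) by number of Klra8 UMIs per cell (x axis), for the fasted, refed, ad libitum and naive populations. The 527 cells with 1 UMI stand between the 1541 undetected cells and the 2397 detected cells, and the 4 populations have close distributions, with 51.4% to 56.2% of cells at 2 or more.

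Across genes, the classes differed in a small set of transcripts, among them some other receptors of the NK gene complex. The Ly49D gene Klra4 rose in detected cells and the NKG2A gene Klrc1 fell, each in all 4 populations. Of 8894 genes tested, 38 were higher (0.427%) and 61 were lower (0.686%) in detected than in undetected cells at an adjusted p below 0.05 (edgeR quasi-likelihood test with the population as a block, Benjamini-Hochberg over all genes tested), which made 99 calls (1.11%). Of the 99, 88 had the same direction in every population, as 1349 of all genes tested did (15.2%), and 24 changed by at least 1 on the log2 scale, and 758 genes had an unadjusted p below 0.05. The detected and undetected sums did not overlap for 272 genes (3.06% of those tested), 39 of them among the calls. DESeq2 called 18 genes, 6 higher (0.0675%) and 12 lower (0.135%), all of them among the 99. Its higher calls were Klra4, Cd55, Camk2n1, Ccl3, Ccl4 and Malat1, and its lower calls were Klrc1, Il7r, Cd226, Klrb1b, Thy1, Emb, Top2a, Gramd3, Ikzf2, Cd3d, Cd3e and Cd3g. Without the other-type clusters edgeR called 87 genes (0.984%), 35 higher (0.396%) and 52 lower (0.588%), of which 78 were among the 99. When the cell with most UMIs of each gene was left out, added after seeing the data, it called 112 (1.28%), 40 higher (0.456%) and 72 lower (0.82%), and these held all 99. Without the refed population edgeR called 14 genes higher and 30 lower, and without the naive population 22 higher and 48 lower.

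Klra4 encodes Ly49D, the other activating Ly49 receptor of C57BL/6 mice, and lies close to Klra8 on chromosome 6 (chr6:130043731-130067271, minus strand, GRCm38). The start regions of both genes are shown because that of Klra4 was the closest to that of Klra8 among the windows aligned. Of 301 aligned positions 86.0% were identical, ahead of Klra17 at 79.0% and Klra2 at 70.6%, and the 7 other Ly49 genes in RefSeq lay between 42.9% (Klra1) and 70.2% (Klra5). Only the first listed window of each gene was aligned. Klra8 itself has a second one (chr6:130129786-130130085), so the whole order holds for its first window only. Klra7 also has a second one (chr6:130233273-130233572), so its place in this order (46.0%) holds for its first window only. Each window runs 5' to 3' from 250 bases before the start of the gene to 50 after it on the minus strand (RefSeq, GRCm38.p6), at chr6:130129849-130130148 for Klra8 and chr6:130067222-130067521 for Klra4, and capitals mark the 41 bases of each that are not identical in the other.
Klra8: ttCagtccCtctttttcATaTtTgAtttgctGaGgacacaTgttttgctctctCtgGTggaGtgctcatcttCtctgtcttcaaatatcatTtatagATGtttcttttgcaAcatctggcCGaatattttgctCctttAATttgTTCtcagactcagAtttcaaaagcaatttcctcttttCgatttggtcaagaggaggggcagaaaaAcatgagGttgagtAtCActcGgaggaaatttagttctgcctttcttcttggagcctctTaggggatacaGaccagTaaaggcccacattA
Klra4: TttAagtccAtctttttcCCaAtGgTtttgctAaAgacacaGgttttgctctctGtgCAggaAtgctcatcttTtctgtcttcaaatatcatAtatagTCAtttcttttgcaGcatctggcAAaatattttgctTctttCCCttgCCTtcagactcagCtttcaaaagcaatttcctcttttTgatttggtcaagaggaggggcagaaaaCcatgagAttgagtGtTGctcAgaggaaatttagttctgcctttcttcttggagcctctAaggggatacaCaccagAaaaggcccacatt
The letters TATAAA, searched on both strands, were present in the windows of Klra8, Klra3, Klra5, Klra6, Klra9 and Klra10. They were absent from those of Klra4, Klra1, Klra2 and Klra17. In Klra7 the first listed window held them and the second did not. Of 32851 RefSeq promoter windows, 13.6% held them. Genes this alike could share reads, so their transcripts were compared at the read length of 90 bases. In the last 500 bases, where this chemistry reads, 0 of the 411 words of Klra8 occurred in another Ly49 gene, and 0 of those of Klra4 and of Klra7, whereas 8 of 411 words of Klra9, 35 of 411 of Klra3 and 43 of 411 of Klra10 occurred in another one. Levels of Klra9, Klra3 and Klra10 are uncertain, because the counting could split such reads.

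Detected cells carried more Klra4 RNA in every population. Klra4 had 1559 CPM in fasted, 1485 in refed, 1417 in ad libitum and 1482 in naive detected cells, against 927, 926, 908 and 914 CPM in undetected cells. Every detected sum lay above every undetected one, and the undetected sums were close to each other. The means were 1486 ± 58.2 CPM in detected and 919 ± 9.66 CPM in undetected cells (SD, n = 4), a log2 fold change of 0.69 (edgeR adjusted p = 1.66e-37, DESeq2 adjusted p = 7.52e-53). Klra4 had the smallest p-value of all genes tested.

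Other Ly49 genes that were called were also higher. Of the 8 Ly49 genes tested besides Klra8, 4 were higher and 0 lower, with a median log2 fold change of 0.42 beside -0.0014 over all genes. That median was 0.26 without the refed population, 0.23 with no filter on low counts and 0.24 in thinned cells, and Klra2 and Klra17 were too low to test. Klra9, which encodes Ly49I, an inhibitory receptor, had 615, 582, 707 and 680 CPM in detected cells (fasted, refed, ad libitum, naive) and 470, 451, 690 and 485 CPM in undetected cells. The ad libitum pair was close and the other pairs were not. Its log2 fold change was 0.28 (edgeR adjusted p = 2.13e-07), which DESeq2 did not call (0.425). Klra7, the gene of the inhibitory receptor Ly49G, had 549, 649, 685 and 709 CPM in detected and 553, 618, 554 and 548 CPM in undetected cells, a log2 fold change of 0.17 (edgeR adjusted p = 0.0032). Fasted detected cells did not lie above fasted undetected cells in this gene, and the call ended without the ad libitum (0.12) or the naive population (0.13). Klra6, a low transcript that encodes Ly49F, had 16.2, 24.6, 22.8 and 25.1 CPM in detected and 8.23, 10.9, 14.3 and 17.5 CPM in undetected cells, with a log2 fold change of 0.83 (edgeR adjusted p = 0.00357) that was 0.70 and not called without the refed population.

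The 4 Ly49 genes without a call were Klra1 (log2 fold change 0.12, edgeR adjusted p = 0.538), Klra3 (0.09, 0.763), Klra5 (0.60, 0.22) and Klra10 (0.55, 0.749). Klra3, the gene of the inhibitory receptor Ly49C, differed between populations: in the fasted spleen it had 301 CPM in detected and 193 CPM in undetected cells, and its log2 ratio there was 0.63, while the ratios of the other populations lay near 0 or below.

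**Figure D2:**
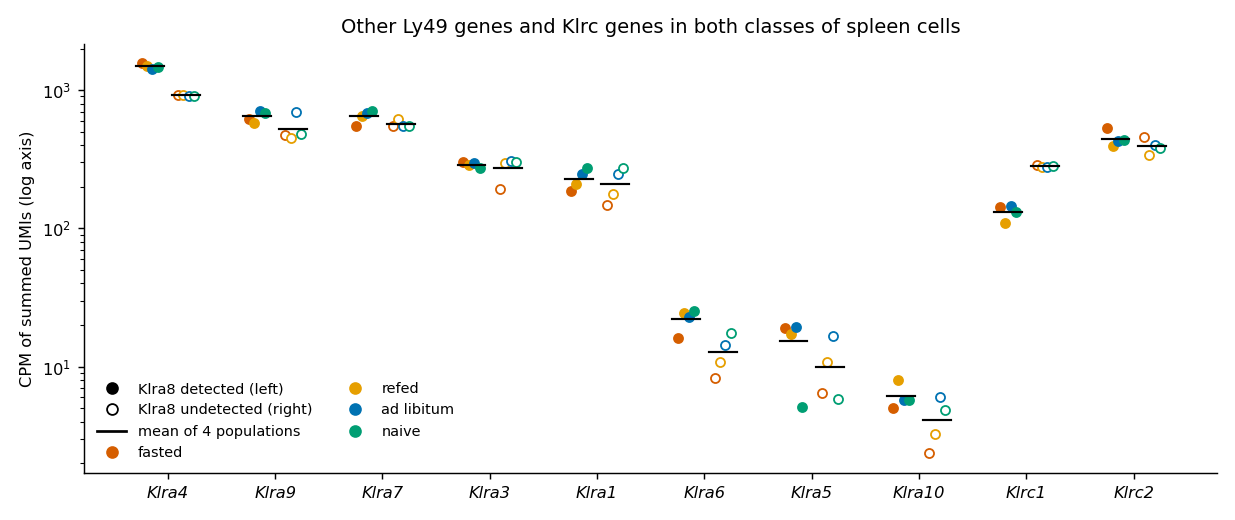
Level (y axis, CPM, log scale) of the 8 tested Ly49 genes, Klrc1 and Klrc2 (x axis) in detected (filled, left) and undetected cells (open, right), 1 point per spleen population and a line at the mean of 4. Klra4 lies at 1417 to 1559 CPM in detected and 908 to 927 CPM in undetected cells, and Klrc1 at 110 to 146 CPM in detected and 277 to 289 CPM in undetected cells.

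The same gene was examined cell by cell, with every cell thinned to 2000 UMIs. At least 1 Klra4 UMI remained in 70.5% of detected cells (exact interval 68.6 to 72.3) and 48.3% of undetected cells (45.8 to 50.9). By population the shares were 73.2% of detected and 51.5% of undetected fasted cells, 70.6% and 47.1% of refed cells, 69.1% and 46.5% of ad libitum cells, and 68.6% and 48.7% of naive cells. Each pair kept the same order. The difference was smaller for Klra7 (53.1% of detected and 46.5% of undetected cells), Klra9 (51.1% and 42.8%) and Klra1 (18.3% and 15.7%). Without thinning, 68.2% of detected and 46.3% of undetected cells held 2 or more Klra4 UMIs. Of the 5 genes Klra1, Klra3, Klra4, Klra7 and Klra9, a detected cell held 2.12 and an undetected cell 1.68 at 2 or more UMIs on average, and 2.80% of detected and 13.5% of undetected cells held none of them at that level. The share without any of the 5 was the larger one in undetected cells.

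Klrc1 encodes NKG2A, an inhibitory receptor that pairs with CD94 and recognises the MHC class Ib molecule Qa-1, and lies at chr6:129666015-129678973. Klrc1 fell in detected cells. It had 143 CPM in fasted, 110 in refed, 146 in ad libitum and 131 in naive detected cells, against 289, 279, 277 and 284 CPM in undetected cells. No detected sum reached an undetected one. The means were 132 ± 16.2 CPM in detected and 282 ± 5.36 CPM in undetected cells (SD, n = 4), a log2 fold change of -1.09 (edgeR adjusted p = 7.56e-29, DESeq2 adjusted p = 4.71e-27). Of thinned cells, 17.0% of detected and 33.8% of undetected cells held a Klrc1 UMI.

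Of the 14 other NK gene complex receptors tested, 1 was higher (Klrc2) and 2 were lower (Klrc1 and Klrb1b), with a median of 0.06. Klrc2 encodes NKG2C, an activating relative of NKG2A, and had 529, 394, 431 and 434 CPM in detected and 456, 340, 399 and 379 CPM in undetected cells. Its log2 fold change was 0.17 (edgeR adjusted p = 0.00749). It was 0.16 and not called without the fasted or without the refed population. With cells carrying markers of other cell types or innate lymphoid cells left out, an alternative added after seeing the data, it was 0.15 (edgeR adjusted p = 0.0529). Klrb1b, the gene of the inhibitory receptor NKR-P1B, had 66.1, 52.7, 61.3 and 41.1 CPM in detected and 113, 114, 96.6 and 91.2 CPM in undetected cells. The sums did not overlap, and the log2 fold change was -0.89 (edgeR adjusted p = 4.56e-13, DESeq2 adjusted p = 1.21e-06).

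Among 14 further NK receptors, 4 fell and 0 rose, with a median of -0.10. Cd226 encodes DNAM-1, an activating receptor for nectin-like ligands. Cd226 had 32.8, 32.9, 25.4 and 37.1 CPM in detected cells of the fasted, refed, ad libitum and naive populations, and 56.4, 73.9, 59.2 and 61.1 CPM in undetected cells. The means were 32.0 ± 4.87 CPM in detected and 62.7 ± 7.76 CPM in undetected cells (SD, n = 4), with no overlap and a log2 fold change of -1.01 (edgeR adjusted p = 2.57e-11, DESeq2 adjusted p = 8.03e-05). Thy1, a surface glycoprotein of T cells and of many less mature NK and innate lymphoid cells, had 73.5, 73.8, 63.6 and 79.3 CPM in detected and 121, 150, 103 and 109 CPM in undetected cells. Its log2 fold change was -0.76 (edgeR adjusted p = 7.27e-12, DESeq2 adjusted p = 3.84e-05), again without overlap. Cd160, a receptor of the immunoglobulin family, and Slamf6, a homophilic SLAM family receptor, fell by 0.34 and 1.10 on the log2 scale (edgeR adjusted p = 0.000562 and 0.000822), and DESeq2 called neither. Without the refed population their log2 fold changes were -0.30 and -1.06, with no call.

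The adaptors through which Ly49H signals were not called. Tyrobp had a log2 fold change of 0.07 (edgeR adjusted p = 0.0514) and Hcst of -0.01 (0.966), and a Tyrobp UMI was present in 99.7% of detected and 98.8% of undetected thinned cells. Of 22 genes of the adaptor and signalling list tested, 1 was higher, Fcer1g, a signalling chain of Fc receptors, with a log2 fold change of 0.10 (edgeR adjusted p = 0.00172; 0.09 and not called without the refed population), and 0 were lower. Among 20 regulators linked in mice to the antiviral response of Ly49H-bearing cells, 1 was higher and 1 lower. Eomes, a T-box factor of NK cell identity, had 236, 280, 257 and 279 CPM in detected and 193, 216, 199 and 246 CPM in undetected cells. Its log2 fold change was 0.31 (edgeR adjusted p = 2.92e-05), and each population showed the direction. Id2, a transcriptional inhibitor needed for innate lymphoid cells, was lower with a log2 fold change of -0.16 (edgeR adjusted p = 6.43e-05). The medians were 0.07 for the adaptor and signalling list and 0.00 for the regulators.

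Genes of mature NK cells that were called were higher, and genes of immature NK cells that were called were lower. Of 14 mature NK genes tested 4 were higher and 0 lower (median 0.07), and of 14 immature NK genes 0 were higher and 5 lower (median -0.07). Without the refed population the medians were 0.03 for mature and 0.01 for immature genes, and without innate lymphoid and other cell type marker cells 0.04 and 0.03, so the direction of the immature median was not stable. Itgam, the integrin CD11b that marks maturing NK cells, had 169, 160, 190 and 167 CPM in detected and 139, 117, 165 and 136 CPM in undetected cells, higher in each population with a log2 fold change of 0.29 (edgeR adjusted p = 0.00235) that was 0.24 and not called without the refed population. Zeb2, a repressor needed for terminal NK cell maturation, and Cma1, a chymase gene, had log2 fold changes of 0.16 and 0.19 (edgeR adjusted p = 0.0327 and 0.0235). Neither was called without the other-type clusters (log2 fold changes 0.13 and 0.16, edgeR adjusted p = 0.151 and 0.0812) or without the fasted, the refed or the naive population, and without the refed one their log2 fold changes were 0.10 and 0.11.

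Gzmb, the cytotoxic protease granzyme B, had 891, 1033, 1081 and 641 CPM in detected and 778, 642, 1087 and 623 CPM in undetected cells. Its log2 fold change of 0.23 was called by edgeR (adjusted p = 0.00023) and not by DESeq2, and the refed population had the widest gap while the ad libitum pair was even. Without the refed population the log2 fold change was 0.06, with no call. Gzma, the most abundant granzyme transcript, and Prf1, the pore-forming perforin, had log2 fold changes of 0.02 (edgeR adjusted p = 0.9) and 0.15 (0.137). Of 17 cytotoxic effectors 1 was higher (Gzmb) and 1 lower (Tnfsf10, the gene of the death ligand TRAIL, with a log2 fold change of -1.20), with a median of 0.02.

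The chemokine genes Ccl3 and Ccl4, whose proteins attract leukocytes, rose in detected cells. Ccl3 had 677, 711, 1207 and 704 CPM in detected cells and 526, 507, 1004 and 645 CPM in undetected cells of the fasted, refed, ad libitum and naive populations. The ad libitum sums were the highest in both classes, and within every population the detected sum was the higher one. Its log2 fold change was 0.31 (edgeR adjusted p = 6.78e-11, DESeq2 adjusted p = 0.00013). Ccl4 had 646, 893, 1098 and 740 CPM in detected and 502, 656, 972 and 619 CPM in undetected cells, with a log2 fold change of 0.30 (edgeR adjusted p = 9.7e-11, DESeq2 adjusted p = 7.75e-05). Of 8 cytokine and chemokine genes 2 were higher and 1 lower (Ltb), with a median of 0.02.

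Further genes that were higher ranged from surface proteins to signalling factors. Cd55, a regulator that dissociates complement convertases, had 32.0, 45.7, 52.2 and 51.9 CPM in detected and 22.3, 27.2, 22.2 and 22.3 CPM in undetected cells. The means were 45.4 ± 9.45 CPM in detected and 23.5 ± 2.45 CPM in undetected cells (SD, n = 4), without overlap, and the log2 fold change was 0.94 (edgeR adjusted p = 1.94e-07, DESeq2 adjusted p = 0.0223). Camk2n1, an inhibitor of calcium/calmodulin kinase II, had 177, 158, 182 and 185 CPM in detected and 120, 107, 150 and 144 CPM in undetected cells, with a log2 fold change of 0.43 (edgeR adjusted p = 1.47e-06, DESeq2 adjusted p = 0.0223). Other higher genes that the naming rule took, with their log2 fold changes, were Mcam (0.68), an adhesion molecule, Traf5 (0.51), a TNF receptor adaptor, Gnpnat1 (0.48), Rac3 (0.47) and Igf2r (0.44), the mannose 6-phosphate receptor. Without the refed or the naive population the change of Mcam was 0.57 with no call, and those of Traf5, Gnpnat1, Rac3 and Igf2r also missed the threshold without the naive population. Of 18 activation and immediate early genes, 2 were higher and 0 lower (median 0.06), namely Nr4a2, a nuclear receptor induced by stimulation (0.44), and Cd69, an early activation antigen (0.32). Neither was called without the fasted (0.41 and 0.21) or without the refed population (0.49 and 0.36).

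The genes with the largest falls held markers of other cells. Il7r, the interleukin-7 receptor, which other innate lymphoid cells and T cells carry, had 12.5, 8.66, 5.13 and 7.42 CPM in detected and 56.4, 23.4, 23.6 and 30.1 CPM in undetected cells, with a log2 fold change of -1.97 (edgeR adjusted p = 1.66e-14). Of the 5 markers of type 1 innate lymphoid cells (ILC1) tested, 5 were lower, and the summed markers ranged from 21.7 to 40.3 CPM over detected and from 74.9 to 114 CPM over undetected populations. Cells with 3 or more UMIs of those markers made up 0.918% of detected cells (22) and 3.57% of undetected cells (55). Of the 7 T cell markers tested 4 were lower, with sums of 549 to 684 CPM in detected and 660 to 801 CPM in undetected populations. These ranges overlapped, and within each population the detected sum was the lower one. Cd8a and Cd8b1 were at 0 in detected cells, as were some markers of dendritic cells and neutrophils. Cd3d, a chain of the T cell receptor complex, had a log2 fold change of -1.46 over all cells and of -0.33 (edgeR adjusted p = 0.712) without other-type clusters.

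Sums of B cell markers (77.3 to 101 CPM in detected, 85.0 to 118 CPM in undetected populations), of monocyte or macrophage markers (20.5 to 50.3 and 24.3 to 39.7 CPM), of dendritic cell markers (7.70 to 26.6 and 11.8 to 26.3 CPM) and of neutrophil markers (34.6 to 45.6 and 39.7 to 51.4 CPM) overlapped between classes. Other-type clusters and cells with 3 or more ILC1 marker UMIs were left out in an alternative added after seeing the data. There edgeR called 27 genes higher and 34 lower, and 54 of these 61 calls were among the 99. Klrc1, Cd226, Thy1, Klrb1b, Klra4, Ccl3 and Ccl4 remained called there.

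Those genes of immature and dividing NK cells that were called were also lower. The immature NK genes that fell were Il7r, Thy1, Cxcr3 (a chemokine receptor, -0.49), Emb (an adhesion glycoprotein, -0.68) and Ltb (lymphotoxin beta, -0.77). Of 12 genes of dividing cells 0 were higher and 3 lower (median -0.25, and -0.10 without the ad libitum population): Top2a, the DNA topoisomerase of mitosis (-0.80), Ube2c, a ubiquitin carrier of the anaphase complex (-0.59), and Mki67, a proliferation antigen (-0.79, edgeR adjusted p = 0.00125). Fasted cells went against the others in Mki67, with 15.4 CPM in detected and 12.9 CPM in undetected cells, and DESeq2 did not call it. Without the refed population the change of Mki67 was -0.48 with no call, and that of Ube2c (-0.62) was not called either. Other genes with large falls were Gna15, a G protein alpha subunit (-0.83), S1pr1, the receptor that guides exit from tissue (-0.60), and S100a4, a calcium-binding protein (-0.49). S1pr1 was not called without the refed (-0.47), nor S100a4 without the naive population (-0.36). Ribosomal protein genes gave 8 lower and 0 higher calls of 99 tested. The interferon-induced genes had 0 calls in either direction of 13 tested (median -0.01), by edgeR and by DESeq2. An unadjusted edgeR p below 0.05 was found for 4 of these 13, beside 758 of all 8894 genes tested.

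**Figure D3:**
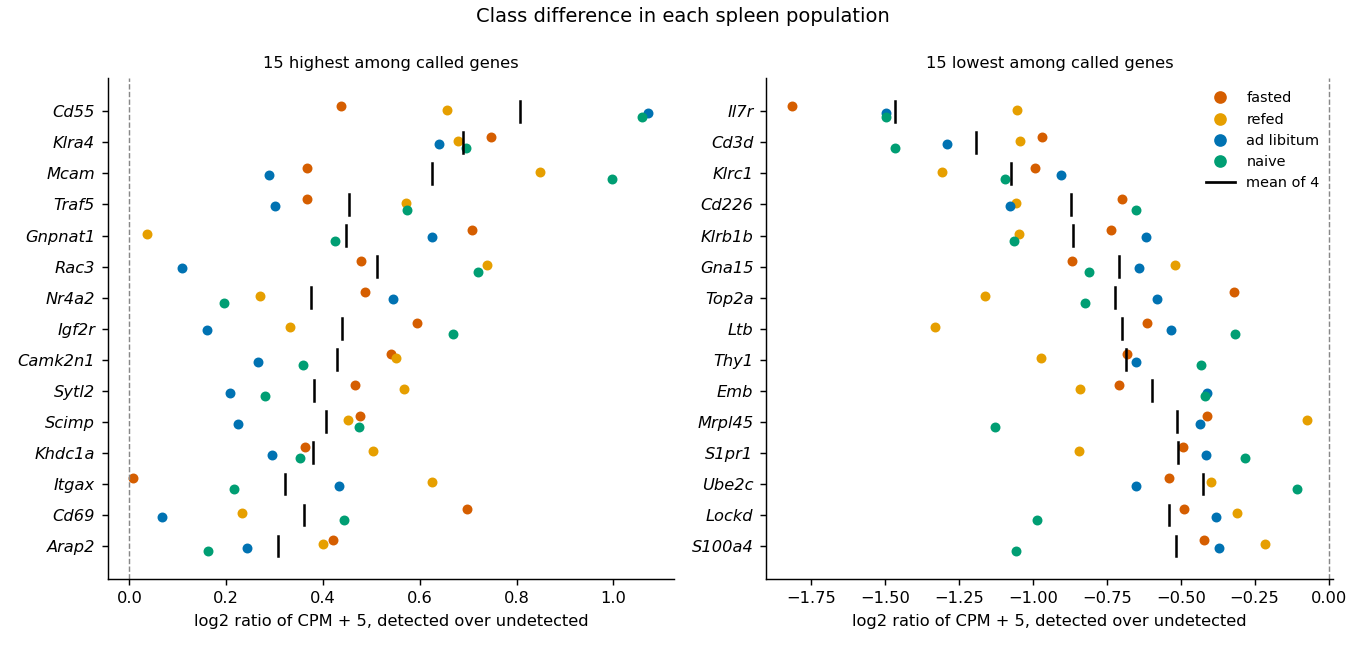
Log2 ratio of CPM + 5 between detected and undetected cells (x axis) of the 15 highest and 15 lowest called genes taken by the naming rule (y axis), with 1 point per spleen population and a bar at the mean of the 4 points. Cd55 and Klra4 head the higher genes (edgeR log2 fold changes 0.94 and 0.69) and Il7r, Cd3d and Klrc1 the lower ones (-1.97, -1.46 and -1.09). All points of a panel lie on 1 side of 0 because the rule took only genes with 1 direction in all populations.

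Levels were then followed over the number of Klra8 UMIs per cell, in cells with 0, 1, 2, 3 to 5, 6 to 10 and 11 or more (1541, 527, 301, 844, 878 and 374 cells). Mean Klra4 was 919, 1126, 1446, 1460, 1530 and 1486 CPM in that order. It was level from 2 UMIs upward, and cells with 1 UMI lay between. Klrc1 was 282, 262, 180, 145, 116 and 111 CPM, and went down through every step. Cd226 was 62.7, 50.3, 39.5, 34.3, 28.3 and 31.8 CPM and Thy1 120, 105, 86.7, 65.4, 72.7 and 75.2 CPM, both lower in each class of 3 or more Klra8 UMIs than in those of 0, 1 and 2. Klra9 stood highest at 2 UMIs, with 524, 596, 714, 619, 636 and 663 CPM. The number of Klra8 UMIs depends on a cell's depth as well as on its Klra8 level, and these means are a description without a test.

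**Figure D4:**
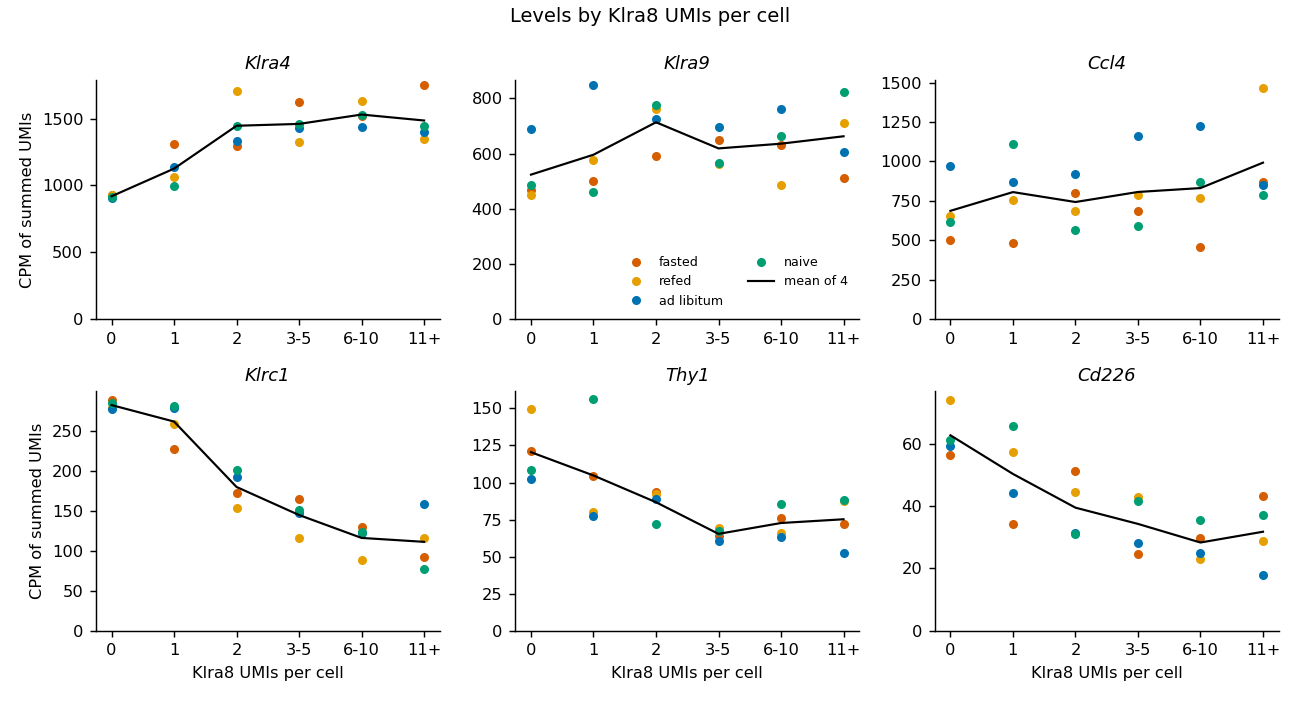
Level (y axis, CPM of summed UMIs) of Klra4, Klra9, Ccl4, Klrc1, Thy1 and Cd226 by number of Klra8 UMIs per cell (x axis), with a point per spleen population and a line through their means. Klra4 is 919 CPM at 0 UMIs and 1446 to 1530 CPM from 2 UMIs upward, and Klrc1 is 282 CPM at 0 and 111 CPM at 11 or more.

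The class difference was taken separately in cells with 2 or more and with 0 Klra4 UMIs, in 1 edgeR fit with a term for the difference between them, a comparison added after seeing the data and set up because Klra4 had the smallest p between the classes. The group with 2 or more Klra4 UMIs held 1635 detected and 714 undetected cells (median 4136 and 3978 UMIs), and the group with 0 held 572 and 683 cells (4269 and 4267 UMIs). Of 7622 genes, 4 differed between classes in cells with Klra4 (0.0525%: Klrc1, Vps37b, Gna15 and Cd55) and 37 in cells without it (0.485%), 33 of these among the 99. The difference itself passed for 10 genes (0.131%), and for 3 when other-type clusters and ILC1 marker cells were left out, namely Klra9, Klra7 and Klrc1. With those cells left out, 2 of 7487 genes differed between classes in cells with Klra4 (0.0267%) and 18 in cells without it (0.24%). Of 95 of the called genes tested in both groups, 71 had the smaller absolute log2 fold change in cells with 2 or more Klra4 UMIs. Their median absolute log2 fold change was 0.23 with Klra4 and 0.46 without it. All genes leaned the same way, with medians of 0.12 and 0.15, and their share with the smaller change was not counted. The 95 genes had been called in a fit that held these same cells.

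Klra9 and Klra7 had a larger class difference in cells where Klra4 was not found. In cells with 0 Klra4 UMIs, Klra9 had 854, 808, 913 and 929 CPM in detected and 459, 502, 676 and 572 CPM in undetected cells, without overlap. In cells with 2 or more Klra4 UMIs it had 520, 492, 626 and 545 CPM in detected and 511, 408, 695 and 408 CPM in undetected cells, which overlapped. The class difference was 0.09 with Klra4 and 0.66 without it on the log2 scale, and the difference between these was -0.57 (edgeR adjusted p = 1.527e-05). For Klra7 the class difference was -0.07 with Klra4 and 0.48 without it, a difference of -0.55 (edgeR adjusted p = 3.83e-05). Klrc1 was lower in detected cells in both groups, by a log2 fold change of -1.12 with Klra4 (edgeR adjusted p = 1.84e-15) and -0.47 without it (4.27e-05), and these differed by -0.65 (0.00297). Its levels were 81.0 CPM in detected and 179 CPM in undetected cells with Klra4, and 265 and 373 CPM in those without it.

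The chemokine genes, like Klra9, had the larger class difference in cells without Klra4. The class difference of Ccl4 was 0.20 with Klra4 and 0.60 without it (difference -0.40, edgeR adjusted p = 0.0261), and that of Ccl3 was 0.15 and 0.50 (difference -0.36, edgeR adjusted p = 0.0136). Once other-type and ILC1 marker cells were left out, these differences were -0.38 for Ccl4 and -0.29 for Ccl3, of like size for Ccl4, and neither was called (edgeR adjusted p = 0.169 and 0.301).

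**Figure D5:**
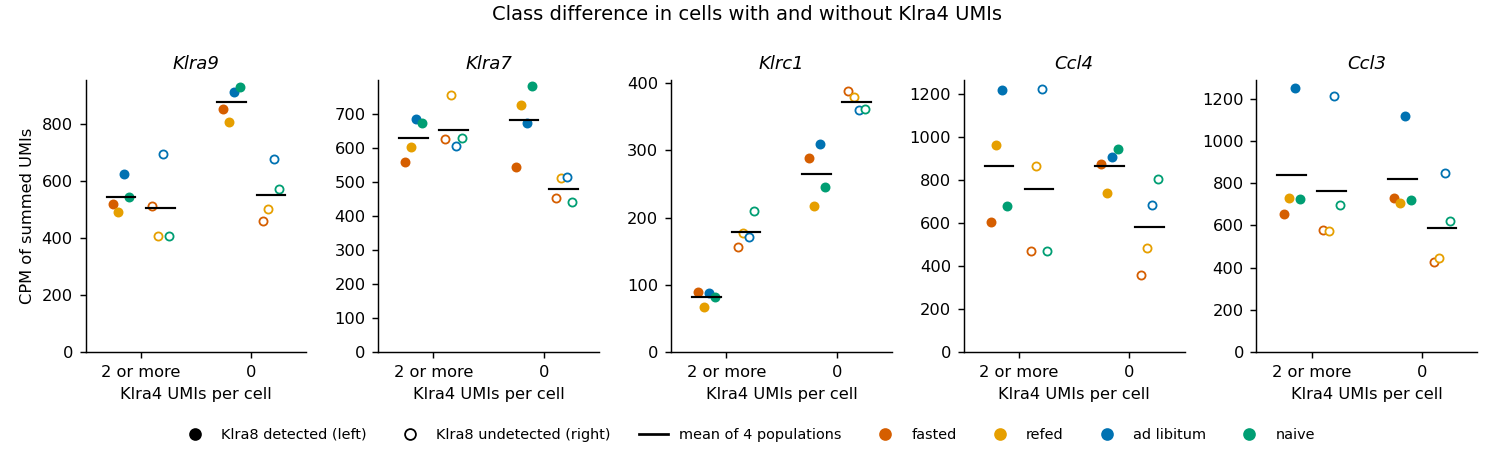
Level (y axis, CPM) in detected and undetected cells of the 4 spleen populations, split into cells with 2 or more and with 0 Klra4 UMIs (x axis), 1 panel each for Klra9, Klra7, Klrc1, Ccl4 and Ccl3, with filled points for detected, open points for undetected cells and a line at the mean of 4. For Klra9 the detected points lie at 808 to 929 CPM without Klra4, above the undetected points at 459 to 676 CPM, and the classes overlap with Klra4.

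Within each diet state the class difference was set against counting error alone, since 1 sum per class leaves no replicate. The log2 ratio of Klra4 between detected and undetected cells was 0.75 in fasted (95% counting interval 0.665 to 0.836), 0.68 in refed (0.599 to 0.763), 0.64 in ad libitum (0.567 to 0.719) and 0.69 in naive cells (0.589 to 0.806). The 4 intervals overlapped. For Klrc1 the ratios were -0.99 in fasted (-1.22 to -0.816), -1.31 in refed (-1.55 to -1.14), -0.90 in ad libitum (-1.10 to -0.754) and -1.09 in naive cells (-1.38 to -0.867). The refed interval did not meet the ad libitum one. Klra9 had 0.38 in fasted (0.262 to 0.513), 0.37 in refed (0.248 to 0.491), 0.04 in ad libitum (-0.0578 to 0.129) and 0.48 in naive cells (0.335 to 0.641), so the ad libitum population stood apart from the others. Gzmb had 0.19 in fasted (0.0961 to 0.296), 0.68 in refed (0.588 to 0.784), -0.01 in ad libitum (-0.0826 to 0.0667) and 0.04 in naive cells (-0.0994 to 0.184), with the refed population apart. None of these differences between diet states was tested.

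The diet differences of the glucocorticoid and fasting list had close medians inside both classes. Tsc22d3, a glucocorticoid-induced leucine zipper gene, was at 263 CPM in fasted and 98.6 CPM in ad libitum detected cells, and at 283 and 91.5 CPM in undetected cells. Its log2 ratio of fasted to ad libitum was 1.37 in detected and 1.58 in undetected cells. The same ratio was 1.98 in detected and 2.05 in undetected cells for Pik3ip1, an inhibitor of PI3 kinase, 1.09 and 1.25 for Txnip, a thioredoxin-binding protein, and 1.27 and 1.43 for Cpt1a, the carnitine transferase of fatty acid oxidation. Over the 10 members at 20 CPM or more, the median ratio was 1.12 in detected and 1.18 in undetected cells, with 9 members higher in each, beside -0.01 and -0.01 over 5192 genes. After refeeding the list medians were 0.06 in detected and -0.05 in undetected cells.

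Cx3cr1 and Ccl3 also differed between diet states in 1 direction in both classes. Cx3cr1, the fractalkine receptor of mature NK cells, had a log2 ratio of fasted to ad libitum of -1.10 in detected and -1.20 in undetected cells, and Ccl3 of -0.83 and -0.93. Gzmb went apart after refeeding, with a log2 ratio of refed to ad libitum of -0.07 in detected cells (95% counting interval -0.136 to 0.00376) and -0.76 in undetected cells (-0.862 to -0.658). Klra4 stayed close to its ad libitum level in fasted cells of both classes, with log2 ratios of 0.14 in detected and 0.03 in undetected cells. These ratios compare single populations and have no replicate check.

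Klra8-detected cells were also found in the other tissues. With the same threshold and window, the share with 2 or more Klra8 UMIs was 31.8% to 45.3% over the bone marrow populations of 78 to 287 cells. It was 34.8% in the fasted tumour (182 of 523 cells, exact interval 30.7 to 39.1), 23.7% in the refed tumour (9 of 38 cells, 11.4 to 40.2) and 42.9% in the ad libitum tumour (6 of 14 cells, 17.7 to 71.1), beside 51.4% to 56.2% in the 4 spleen populations. The median UMIs of these populations ran from 3568 to 5730.5, the interval of the ad libitum tumour covers every spleen share, and the order of tissues was not tested. Inside the spleen, shares were taken only for the authors' clusters 1 to 7, since the others held few cells in the window. Among these, from 37.9% (cluster 6, 87 cells) to 59.5% (cluster 1, 1021 cells) of a cluster's cells were detected. The authors' clustering may itself have used Klra8, and these shares were not tested.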

How the data were processed

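The data were raw UMI counts per cell and gene from the authors' deposited matrix (13118 cells, 16800 columns, 16789 symbols), built with seqc per the labels' protocols and on mm10 per the submitters' processing notes. Hashtag classes, populations and clusters are the authors'. The sources used here do not say how hashtags were classified. Cells classified as doublets (5606) and 33 unclassified cells were left out, and no doublet caller was run. Of the symbols, 16278 matched GENCODE M21.

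Counts were summed per spleen population and class, and columns of 1 symbol were added together. edgeR 4.0.16 (R 4.3.3) was fitted with its expression filter, TMM factors and the population as a block, because both classes of a population come from the same pool. Calls took a Benjamini-Hochberg adjusted p below 0.05 over all genes tested, and Klra8 was left out of the tests. Per-population ratios are of CPM + 5. Alternatives used DESeq2 1.42.0, limma 3.58.1, other thresholds, depth windows and cell filters, and the sums without each population. Other-type clusters came from scanpy 1.11.5 and leidenalg 0.10.2 (2000 variable genes, 30 components, 15 neighbours, resolution 0.8) with marker lists. Intervals are exact binomial at 95% and cover counting error only. PCR duplicates are removed by the UMIs.

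The genes named were all Ly49 genes, the 15 highest and 15 lowest calls of at least 20 CPM with 1 direction in all populations, up to 4 members per list by p, and a fixed set of NK genes. Cxcr3, Malat1, Gramd3, Ikzf2, Cd3e, Cd3g, Vps37b, Xcl1, Serpinb9b and Trbc2 were named after their values were seen. Members and lists were chosen with earlier results of these data known. On simulated counts of 8957 genes, this comparison recovered 44% of 1.2-fold, 62% of 1.3-fold, 86% of 1.5-fold and 100% of 2-fold changes (50 genes each), and 5.19% of calls were false. The counts were drawn with 1 common spread for all genes (dispersion 0.000626) and fitted with the same model. Spread that differs between genes and cells of other types in 1 class were not simulated, so these figures do not give the error rate in the real data.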

Additional observations from a re-analysis of the deposited data

Results flagged for a closer look

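Among the 47 named genes that edgeR called, 2 had 1 population far from the other 3 by Dixon's criterion, which chance gives in about 1 of 20 such groups. Scimp had a log2 ratio of detected to undetected cells of 0.224 in the ad libitum population, with a gap of 0.897 of the range. Slamf6 had a ratio of -0.0185 in the naive population, with a gap of 0.885.

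For 10 genes the class difference in cells with 2 or more Klra4 UMIs differed from that in cells with 0, by the edgeR term for that difference. The difference was negative for Klra9 (-0.567), Klra7 (-0.549), Klrc1 (-0.65), Ccl4 (-0.402), Ccl3 (-0.357), Gzma (-0.203) and Serpinb9b (-0.842). It was positive for Cd3d (2.18), Trbc2 (0.531) and Xcl1 (0.584). Xcl1, a chemokine gene, had a class difference of 0.24 with Klra4 and -0.34 without it, and Serpinb9b of -0.38 with and 0.46 without it. Cd3d, a T cell receptor chain, had a class difference of 0.07 with and -2.10 without Klra4. Without other-type clusters and cells with ILC1 markers the difference was called for Klra9 (-0.49), Klra7 (-0.49) and Klrc1 (-0.65), and for none of the other 7. Of those, Ccl4 (-0.381), Serpinb9b (-0.771), Xcl1 (0.468) and Ccl3 (-0.288) kept most of their size, and Trbc2 was at 0.387, Gzma at -0.123 and Cd3d at 0.947.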

How the results depend on the processing

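Of edgeR's 38 higher and 61 lower calls, DESeq2 kept 6 and 12. A fit without the population block gave 2 higher and 17 lower calls, and cells with 1 Klra8 UMI against 0 gave 3 and 13. Cells thinned to 2000 UMIs gave 15 and 28, and an upper limit of 5000 UMIs 15 and 27. Leaving out cells with innate lymphoid or other cell type markers gave 27 and 34. Leaving out 1 population gave 14 to 32 higher and 30 to 59 lower calls. Of the 47 called named genes, 23 were not called without the refed population, 13 without the naive, 12 without the fasted and 8 without the ad libitum one. With 1 UMI against 0 the change turned round for Itgax (-0.0729), Cd69 (-0.454) and Klra6 (-0.25), and the list medians were -0.0379 for the Ly49 family, 0.0299 for the other receptors of the NK gene complex, 0.0261 for adaptors and signalling, -0.0568 for regulators of the antiviral response and -0.17 for interferon-induced genes. The Ly49 family median was 0.22 with the limit of 5000 UMIs. The median of the other receptors of the NK gene complex was 0.0404 in thinned cells, 0.0431 without other cell type clusters, 0.0407 without low-quality and other clusters, 0.0410 without innate lymphoid markers, and 0.0402 to 0.0546 with 1 population left out. Leaving out 1 population gave medians of -0.262 to -0.0716 for other NK receptors and -0.0262 to 0.0847 for glucocorticoid and fasting genes, and leaving out innate lymphoid markers gave -0.0274 for cytotoxic effectors. Shares of cells thinned to 2000 UMIs were 39.6% in fasted, 40.9% in refed, 39.2% in ad libitum and 41.2% in naive spleen. With 1 or more UMIs they were 63.9%, 65.8%, 66.1% and 66.5%, and with 3 or more 43.8%, 48.8%, 46.8% and 49.6% in that order. The difference with Klra4 was called for 3 genes without other-type and ILC1 marker cells. The cause of these changes was not tested. Depth limits what 1 UMI shows: a cell with 0 Klra8 UMIs may still express the gene.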
